A study of Mus musculus with 6 samples.

Results

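The genes described here serve 3 stress pathways, the unfolded protein response of the endoplasmic reticulum (ER), the integrated stress response (ISR) and the heat shock response. They were taken by symbol from the deposited expression table, 40 genes of 47086 loci, with 20 genes in the ER group, 9 in the ISR group and 11 in the heat shock group. The study sequenced RNA of hippocampal cultures grown from wild type (WT) mice and from *Fmr1* knockout (KO) mice, a model of fragile X syndrome, in which the RNA-binding protein FMRP is lost. All cultures were of C57BL/6 background, were prepared from newborn mice and were harvested after 14 days in vitro, and each genotype had 3 libraries. The labels do not say whether the 3 libraries of a genotype came from separate cultures or litters, so p-values measure only the spread between these libraries. Expression was given as FPKM, fragments scaled by transcript length and by the mapped fragments of the library, and 13195 loci with a mean of at least 1 FPKM in either genotype were tested with limma on log2(FPKM + 0.1).

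Proteins that fold badly in the ER activate the sensors IRE1 (Ern1), PERK and ATF6, which raise ER chaperones, protein degradation and the transcription factors XBP1 and ATF6. PERK and related kinases phosphorylate the initiation factor eIF2alpha, which lowers general translation while translation of Atf4 rises, and ATF4 then induces genes of amino acid supply and Ddit3 (CHOP). Unfolded proteins in the cytosol release HSF1, which induces HSP70, HSP90 and their co-chaperones. Much of the signalling in these pathways runs through protein cleavage, Xbp1 splicing and phosphorylation, none of which an FPKM per gene measures. FMRP binds mRNAs and represses translation, and the FPKM values hold no measure of translation either.

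The promoter sequences of the ER group were examined first, since they show which members carry the classical ER stress element (ERSE, CCAAT and CCACG with 9 bases between). RefSeq windows from 250 bases before to 50 bases after the start were at hand for 32 of the 40 members, as 36 windows on GRCm38.p6. They were not at hand for Hyou1, Manf, Atf6, Ppp1r15b, Hsf1, Hspa8, Hsp90aa1 and Hsp90ab1. Searched on both strands, the ERSE was present in 8 of the 36 windows (22.2%), against 0.119% of all 32851 RefSeq windows. All 8 belonged to ER genes, and Hsp90b1 held 2 sites. The matches are shown on the strand of the gene with 6 bases on either side and with the CCAAT and CCACG blocks, or their reverse complements, in capitals.
Hspa5, chr2:34772019-34772049, plus strand: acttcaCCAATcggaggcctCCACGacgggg
Hsp90b1, chr10:86705632-86705662, minus strand: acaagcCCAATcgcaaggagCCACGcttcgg
Hsp90b1, chr10:86705527-86705557, minus strand: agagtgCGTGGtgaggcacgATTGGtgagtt
Calr, chr8:84847069-84847099, minus strand: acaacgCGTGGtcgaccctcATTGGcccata
Canx, chr11:50325794-50325824, minus strand: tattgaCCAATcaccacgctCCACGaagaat
Pdia6, chr12:17266485-17266515, plus strand: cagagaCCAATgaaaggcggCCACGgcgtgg
Dnajc3, chr14:118937821-118937851, plus strand: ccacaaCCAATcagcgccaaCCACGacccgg
Creld2, chr15:88819514-88819544, plus strand: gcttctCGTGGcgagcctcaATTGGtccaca
Syvn1, chr19:6046526-6046556, plus strand: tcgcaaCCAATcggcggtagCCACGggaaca

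The 250 bases before the start of Hspa5, which encodes the ER chaperone BiP, are shown whole because it is the reference gene of the ER response, with the ERSE blocks in capitals. The window also holds further CCAAT boxes that the strict motif did not count.
Hspa5, chr2:34771840-34772089, plus strand: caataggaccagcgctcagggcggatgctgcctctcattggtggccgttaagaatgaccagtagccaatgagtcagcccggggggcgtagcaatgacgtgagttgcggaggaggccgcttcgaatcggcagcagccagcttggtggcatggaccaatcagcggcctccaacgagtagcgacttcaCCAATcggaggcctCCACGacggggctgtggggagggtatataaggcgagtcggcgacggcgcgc

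The ATF4 element (CARE, searched as TGATGNAA) was found in the windows of 4 members, which was 11.1% of the member windows against 3.97% of all windows. These were the ISR targets Asns, Chac1 and Trib3 and the ER gene Herpud1. The element and its reverse complement are in capitals below, and the site of Trib3 lies after the start. The XBP1 element core (TGACGTGG) was found in 0 of the 36 windows, against 0.676% of all windows.
Asns, chr6:7693219-7693238, minus strand: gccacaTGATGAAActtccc
Chac1, chr2:119351043-119351062, plus strand: ctgccgTTGCATCActcctg
Trib3, chr2:152344033-152344052, minus strand: tcaggtTTACATCAgccggg
Herpud1, chr8:94386311-94386330, plus strand: ggcgggTTGCATCAgcccgc

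The heat shock element, 3 alternating GAA and TTC blocks set 2 bases apart, was found in 4 windows (11.1%, against 0.603% of all windows) that belonged to Hspd1, Hspe1 and Hsph1. Hspd1 and Hspe1, which encode the mitochondrial chaperonin and its cap, lie head to head and share 1 run of 4 alternating blocks between their starts. That run is shown for each gene on its own strand with 3 blocks in capitals, beside the site of Hsph1, which lies after the start.
Hspe1, chr1:55088058-55088082, plus strand: gttctaGAAccTTCcgGAAggcccc
Hspd1, chr1:55088053-55088077, minus strand: cttccgGAAggTTCtaGAAcggacc
Hsph1, chr5:149636282-149636306, minus strand: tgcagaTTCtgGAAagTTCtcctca

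Ddit3, the best known pro-apoptotic target of the ISR, held none of the 4 motifs in its window, and its 250 bases before the start are shown because its level is discussed below. No match says only that these letters were not in the window.
Ddit3, chr10:127290543-127290792, plus strand: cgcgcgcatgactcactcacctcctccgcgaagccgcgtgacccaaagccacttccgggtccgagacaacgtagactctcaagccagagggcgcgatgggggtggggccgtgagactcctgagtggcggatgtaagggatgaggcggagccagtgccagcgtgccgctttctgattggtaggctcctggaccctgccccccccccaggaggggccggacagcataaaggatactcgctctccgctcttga

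Before the genotypes were compared, the targeted gene and the cultures were checked. Fmr1 had 19.0, 19.5 and 19.7 FPKM in the WT libraries and 23.1, 21.8 and 18.5 FPKM in the libraries labelled *Fmr1* KO, with a log2 difference of 0.12 (SE 0.08, limma adjusted p = 0.536). A gene-level FPKM does not show whether an allele is disrupted, so it does not check the labels, and the libraries are called by their labels here. Neuronal markers were high, with a summed level over 10 genes of 2122 to 2194 FPKM in WT and 2209 to 2305 FPKM in the libraries labelled KO. These sums did not overlap, but without Camk2a they did (1638 to 1704 and 1671 to 1792 FPKM). Camk2a and Map2 were higher in the libraries labelled KO without overlap, and Slc17a7 was lower without overlap. Map2 had means of 302.0 FPKM in WT and 362.2 FPKM in the libraries labelled KO (log2 difference 0.26, limma adjusted p = 0.0593). Log2 differences were above 0 for 5 of the neuronal genes and below 0 for 5. Astrocyte markers were nearly as high, with a sum over 8 genes of 1721 to 2028 FPKM in WT and 1783 to 1981 FPKM in the libraries labelled KO, so cultures labelled as hippocampal neurons held both cell types. In such bulk RNA, fewer cells of a type and less RNA per cell cannot be told apart.

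The members covered a wide range of levels. Hsp90ab1, the constitutive cytosolic HSP90, was the highest with a mean over the 6 libraries of 562.6 FPKM, and its libraries did not overlap with those of the next gene. The ER calcium-binding lectin Calr followed with 199.2 FPKM. Hsp90b1, Hspa5 and the lectin Canx had 160.4, 154.8 and 147.2 FPKM, and each overlapped with its neighbour in this order. Pdia3, a disulfide isomerase that works with the lectins, had 100.4 FPKM. At the lower end were the HSF1 target Bag3 with 3.90 FPKM, the ISR pseudokinase Trib3 with 2.76 FPKM and Ern1 with 1.40 FPKM. In the order of the 38 members above 0, 26 of the 37 neighbouring pairs had libraries that overlapped, so most single steps in the order are not separated.

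**Figure D1:**
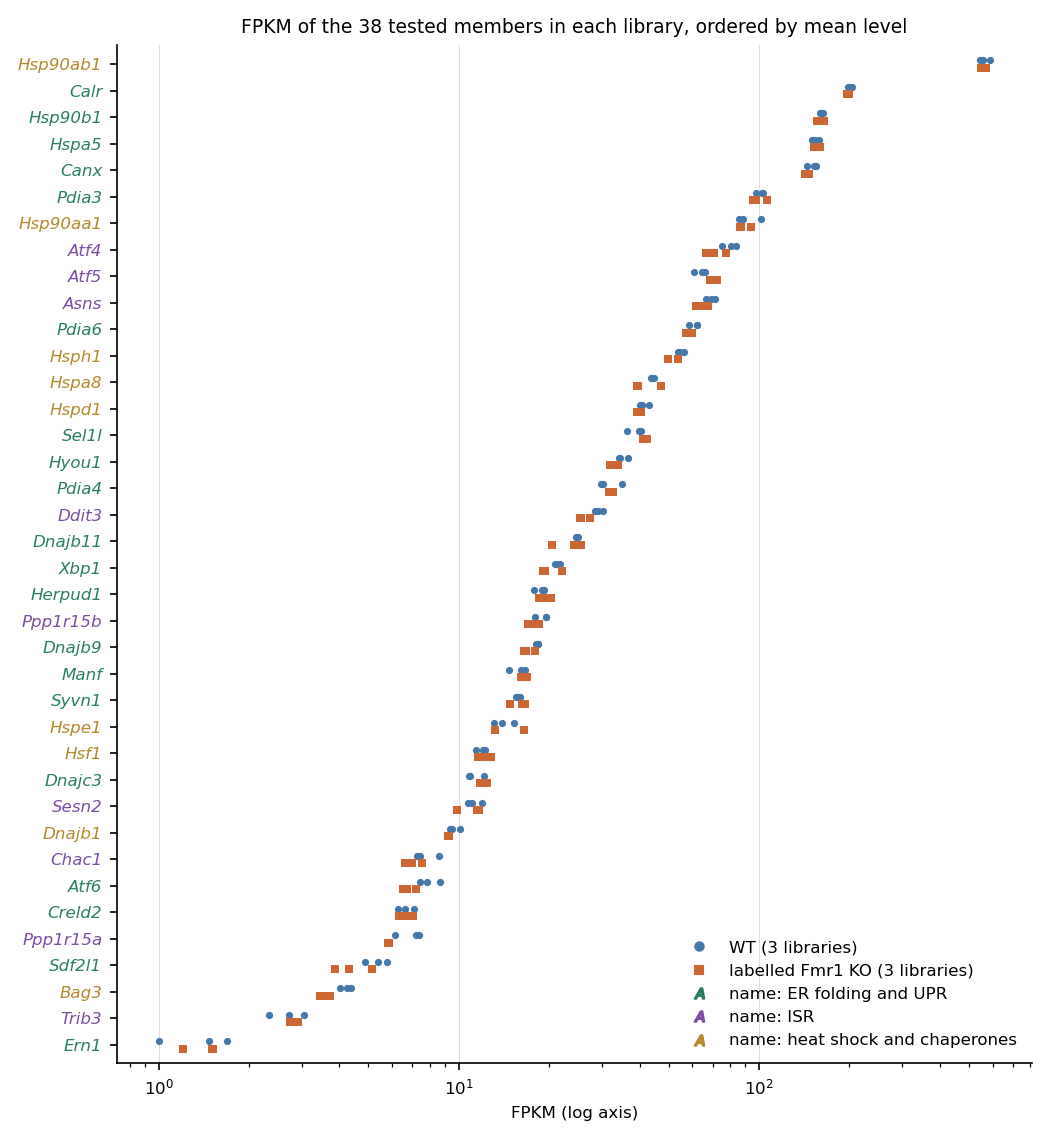
FPKM of the 38 tested members (log axis) in each of the 3 WT libraries (circles) and 3 libraries labelled KO (squares), ordered by the mean over all 6, with gene names coloured by group. Levels run from Ern1 at 1.40 FPKM to Hsp90ab1 at 562.6 FPKM, and the 2 genotypes lie close together at each gene.

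Some levels need care in reading. Hspa1a and Hspa1b, the stress-inducible HSP70 genes, were listed at 0 FPKM in all 6 libraries at all 8 of their loci. Their coding sequences are 99.43% identical, and 66.3% and 62.3% of the 50-base windows of their transcripts also occur in another gene. The table lists each of them once on chromosome 17 and 3 times on unplaced or alternative scaffolds. Among protein-coding symbols with 1 chromosome locus and 3 scaffold loci, 157 of 175 (89.7%) were listed at 0 in every library, against 19.8% of 19994 symbols with 1 chromosome locus only. The listed 0 is therefore no measure of absence, and both genes were left untested. Reads of the cytosolic and mitochondrial chaperones can also be split among copies: 74.8% of the 50-base windows of Hspa8 occur in other genes, as do 58.5% of Hsp90aa1, 44.8% of Hspd1 and 44.8% of Hspe1. None of the windows of Hspa5, Canx, Atf4, Atf6, Xbp1, Hsph1 or Bag3 were shared. The sources do not say whether reads were counted by strand, and exons of 5 members overlapped those of a gene on the other strand over more than 5% of their bases (Hsp90b1, Manf, Ppp1r15b, Hspa1a and Hspe1). Counting any overlap with the other strand, there were 13 such members, among them Ddit3 (4.7% of bases) and Atf5 (4.1%).

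With respect to genotype, no member passed the test. Of the 38 tested members, 0 had an adjusted p below 0.05, against 35 of all 13195 tested loci (0.265%), and the lowest adjusted p of a member was 0.214 (Atf5). At an unadjusted p below 0.05, 6 members were lower in the libraries labelled KO (background 7.77% of all loci) and 1 was higher (background 6.99%), 7 in all (background 14.8%). The 6 were Sdf2l1, Atf6, Atf4, Ddit3, Ppp1r15a and Bag3, and the 1 was Atf5. Libraries of the genotypes did not overlap for 7 members that were lower (background 10.3%) and for 2 that were higher (background 10.8%). Log2 differences were below 0 for 25 of 38 members (65.8%), against 48.3% of all loci, and their median was -0.05, against 0.00 for all loci. All of them lay between -0.27 and 0.16. The 95% intervals had a median half-width of 0.137 on the log2 scale. They lay within a 1.2-fold change in either direction for 26 members and within a 1.5-fold change for all 38.

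**Figure D2:**
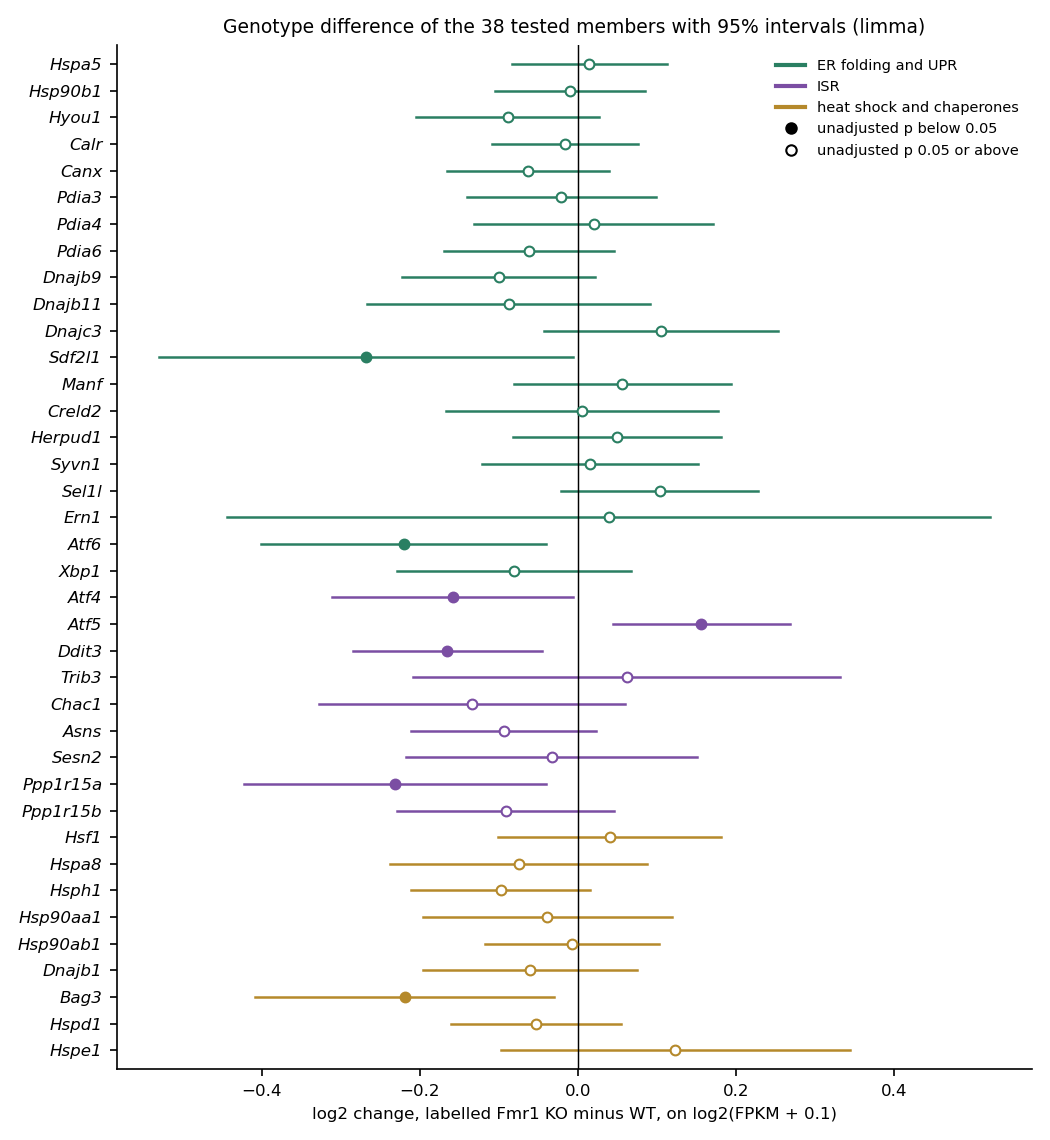
Log2 difference (labelled KO minus WT, limma on log2(FPKM + 0.1)) of the 38 tested members with 95% intervals, by group, with filled points at an unadjusted p below 0.05. The 7 filled points lie between -0.27 (Sdf2l1) and 0.16 (Atf5), and none passed adjustment over 13195 loci.

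The ER chaperones with the highest levels had nearly equal values in the 2 genotypes. Hspa5 had 154.0, 150.3 and 157.8 FPKM in WT and 159.4, 152.5 and 155.0 FPKM in the libraries labelled KO. Its groups overlapped, and the log2 difference was 0.01 with a 95% interval of -0.08 to 0.11 (adjusted p = 0.918). The ER HSP90 Hsp90b1 was at 161.0 ± 1.70 FPKM in WT and 159.9 ± 3.97 FPKM in the libraries labelled KO (SD, n = 3). The lectins had 200.4 ± 3.43 and 198.1 ± 2.14 FPKM for Calr and 150.4 ± 5.51 and 144.0 ± 2.10 FPKM for Canx (SD, n = 3). Hyou1, the large HSP70 relative that exchanges nucleotide on BiP, had 34.2, 36.7 and 34.4 FPKM in WT and 33.9, 32.0 and 33.1 FPKM in the libraries labelled KO. Its groups did not overlap, the highest library labelled KO lying just under the lowest WT library. The log2 difference was -0.09, with an interval of -0.20 to 0.03 (adjusted p = 0.463).

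The disulfide isomerases Pdia3, Pdia4 and Pdia6 differed by -0.02, 0.02 and -0.06 on the log2 scale, with overlapping libraries and adjusted p-values of 0.592 to 0.930. The ER co-chaperones were less alike. Dnajb9, a BiP co-chaperone and a target of spliced XBP1, had 18.1, 18.3 and 18.4 FPKM in WT and 17.9, 16.5 and 16.7 FPKM in the libraries labelled KO. All libraries labelled KO lay below WT, the first of them narrowly, with a log2 difference of -0.10 (interval -0.22 to 0.02, adjusted p = 0.433). Sdf2l1, a small partner of ER J-proteins, had 5.38, 4.85 and 5.78 FPKM in WT and 3.86, 5.12 and 4.31 FPKM in the libraries labelled KO. The second library labelled KO lay inside the WT range, and the log2 difference was -0.27 (SE 0.12, adjusted p = 0.328). Dnajb11 and Dnajc3, both J-proteins of the ER, differed by -0.09 and 0.10 with overlapping libraries.

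Secreted and degradation factors of the ER were at or slightly above WT. Manf, a secreted factor released on ER calcium loss, had 15.8 ± 0.942 FPKM in WT and 16.4 ± 0.363 FPKM in the libraries labelled KO (SD, n = 3). Creld2 had 6.67 ± 0.412 and 6.69 ± 0.349 FPKM (SD, n = 3). All 3 genes of ER-associated degradation had log2 differences above 0. They were 0.05 for Herpud1, 0.02 for the ubiquitin ligase Syvn1 and 0.10 for its partner Sel1l, and none passed the test. Sel1l had 36.4, 39.9 and 40.6 FPKM in WT and 41.1, 42.0 and 42.4 FPKM in the libraries labelled KO. Its groups did not overlap, but 2 WT libraries lay close to the lowest library labelled KO (interval -0.02 to 0.23, adjusted p = 0.427).

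Of the sensors and transcription factors of the ER response, Atf6 differed most. Atf6, the membrane-bound factor that is cleaved on ER stress, had 7.41, 8.66 and 7.82 FPKM in WT and 6.69, 6.52 and 7.23 FPKM in the libraries labelled KO. All 3 libraries labelled KO lay below all WT libraries. The log2 difference was -0.22 (SE 0.08, interval -0.40 to -0.04, adjusted p = 0.259). Xbp1 had 21.8, 21.2 and 20.9 FPKM in WT and 22.01, 19.1 and 19.4 FPKM in the libraries labelled KO. Here 2 libraries labelled KO were below WT and 1 was above it (log2 difference -0.08, interval -0.23 to 0.07, adjusted p = 0.614). Ern1 was near the FPKM minimum of 1 and had the widest interval of all members, -0.44 to 0.52. The 8 members with an ERSE had log2 differences from -0.06 to 0.10, with a median of -0.00 and 4 of 8 below 0.

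Within the ISR group, 7 of 9 members had log2 differences below 0 (background 48.3%), with a median of -0.09. At an unadjusted p below 0.05, 3 were lower (background 7.77%) and 1 was higher (background 6.99%). Atf4, the main transcription factor of the response, had 83.6, 80.8 and 75.3 FPKM in WT and 77.6, 71.0 and 66.3 FPKM in the libraries labelled KO. The first library labelled KO lay above the lowest WT library, so the groups overlapped. The log2 difference was -0.16 (SE 0.07, adjusted p = 0.320). Ddit3 (CHOP) had 28.4, 29.1 and 30.2 FPKM in WT and 25.6, 25.3 and 27.3 FPKM in the libraries labelled KO. All libraries labelled KO were below WT (log2 difference -0.17, SE 0.05, adjusted p = 0.216). Atf5, a related factor that is also controlled by upstream reading frames, had higher values in the libraries labelled KO. Its level was 65.9, 60.9 and 64.7 FPKM in WT and 68.9, 71.7 and 72.7 FPKM in the libraries labelled KO, with no overlap. The log2 difference was 0.16 (SE 0.05, interval 0.04 to 0.27, adjusted p = 0.214), a 1.11-fold higher level.

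None of the 4 genes grouped as ISR targets, Asns, Chac1, Sesn2 and Trib3, had an unadjusted p below 0.05. Asns, which makes asparagine, had 69.0 ± 2.51 FPKM in WT and 64.7 ± 2.80 FPKM in the libraries labelled KO (SD, n = 3), with a log2 difference of -0.09 (adjusted p = 0.442). The glutathione-degrading enzyme Chac1 and the mTORC1 regulator Sesn2 differed by -0.13 and -0.03, and Trib3 by 0.06, all with overlapping libraries. The 4 members with an ATF4 element had log2 differences from -0.13 to 0.06, with 2 of 4 below 0. The phosphatase subunits that reverse eIF2alpha phosphorylation were both below 0. Ppp1r15a (GADD34), the inducible subunit, had 7.36, 7.23 and 6.12 FPKM in WT and 5.87, 5.81 and 5.86 FPKM in the libraries labelled KO. All libraries labelled KO lay below WT and close together, while WT replicate 3 was nearer to them than to the other WT libraries. The log2 difference was -0.23 (SE 0.08, adjusted p = 0.260). Ppp1r15b, the constitutive subunit, differed by -0.09 (interval -0.23 to 0.05, adjusted p = 0.523).

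**Figure D3:**
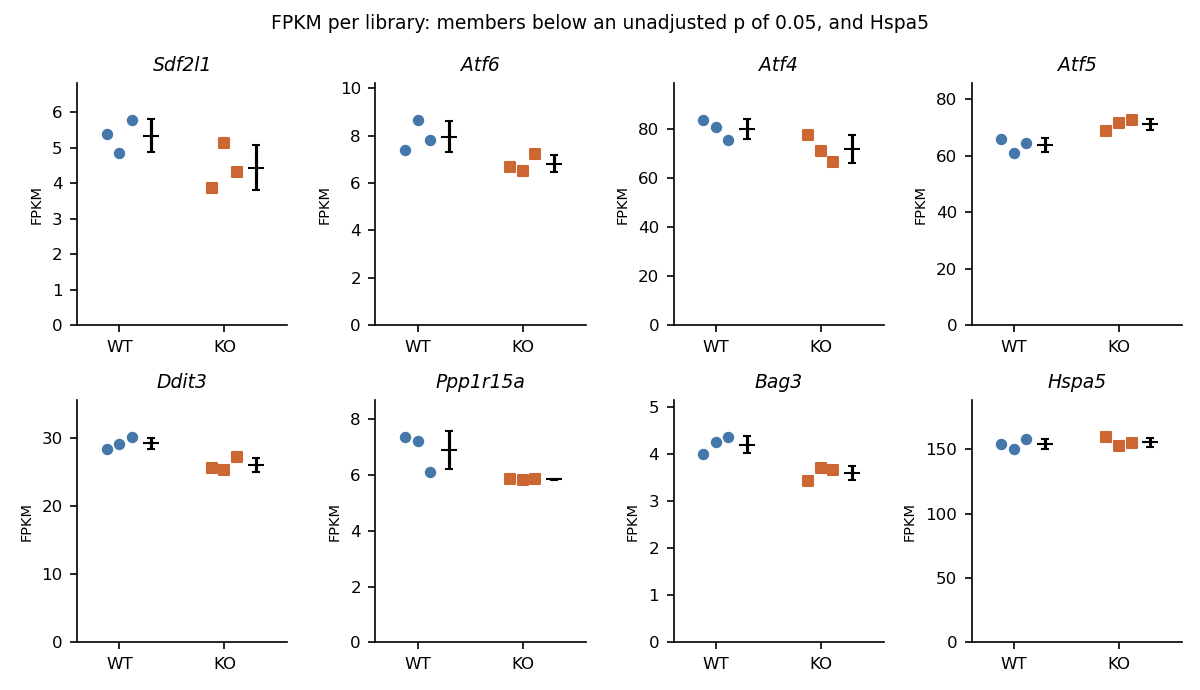
FPKM in each library (circles WT, squares labelled KO, axes from 0) of the 7 members at an unadjusted p below 0.05 and of Hspa5, with bars for mean ± SD of 3 libraries. Atf5 was higher in the libraries labelled KO (1.11-fold) and the other 6 were lower, and Atf4 and Sdf2l1 overlapped between genotypes.

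In the heat shock group, the transcription factor Hsf1 had 12.04, 11.4 and 12.2 FPKM in WT and 12.4, 12.8 and 11.6 FPKM in the libraries labelled KO. The groups overlapped, with a log2 difference of 0.04 (interval -0.10 to 0.18, adjusted p = 0.816). Among its targets, Bag3, which couples HSP70 to autophagy, had 4.004, 4.26 and 4.37 FPKM in WT and 3.44, 3.71 and 3.66 FPKM in the libraries labelled KO. Its groups did not overlap, and the log2 difference was -0.22 (SE 0.08, adjusted p = 0.276). The J-protein Dnajb1 had 9.48, 9.34 and 10.1 FPKM in WT and 9.21, 9.22 and 9.27 FPKM in the libraries labelled KO. These groups did not overlap either, but the gap was small against the WT spread, with a log2 difference of -0.06 (interval -0.20 to 0.07, adjusted p = 0.682).

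The abundant cytosolic chaperones were near WT. The constitutive HSP70 Hspa8 differed by -0.08 and its nucleotide exchange partner Hsph1 by -0.10 on the log2 scale. Hspa8 was above all WT libraries in the first library labelled KO and below all of them in the others. The HSP90 genes Hsp90aa1 and Hsp90ab1 differed by -0.04 and -0.01, with adjusted p-values of 0.846 and 0.962. The mitochondrial chaperonin gene Hspd1 differed by -0.05 and its divergently transcribed partner Hspe1 by 0.12, with overlapping libraries. The processed copy Hspd1-ps3, which holds 42.8% of the 50-base windows of Hspd1, was listed at 34.9 to 36.9 FPKM, not far below the 39.2 to 42.9 FPKM of Hspd1 itself. Of the 3 members with a heat shock element, 2 were below 0, with log2 differences from -0.10 to 0.12.

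Each library labelled KO was also set against the WT libraries on its own. In library 1 labelled KO, 10 of 38 members (26.3%) lay below all WT libraries, against 24.0% of all loci, and 13 (34.2%) lay above them, against 26.9% of all loci. In library 2, 21 members (55.3%) lay below all WT libraries and 6 (15.8%) above them, against 28.2% and 27.7% of all loci. In library 3, 21 members (55.3%) lay below and 3 (7.89%) above, against 27.5% and 28.7% of all loci. The median deviation from the WT mean was -0.01, -0.07 and -0.06 on the log2 scale in libraries 1, 2 and 3 labelled KO, against 0.01, 0.00 and 0.01 over all loci. The 7 members below all WT libraries in each of the 3 were Hyou1, Dnajb9, Atf6, Ddit3, Ppp1r15a, Dnajb1 and Bag3. Without library 1 labelled KO, 7 members were lower at an unadjusted p below 0.05, with 7.98% of all loci lower in the same fit. Without library 2 or library 3 labelled KO, 2 members were lower in each fit, with 5.48% and 5.77% of all loci. Without WT replicate 1 or 2, there were 3 and 2 such members, with 6.73% and 6.82% of all loci. The count of lower members thus moved with single libraries of both genotypes, and the share over all loci moved with it in the same direction from the 7.77% of the full fit. Atf5 had an unadjusted p below 0.05 in all 13 alternative fits and Ddit3 in 12 of 13, while Sdf2l1 had one in 5 of 13.

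**Figure D4:**
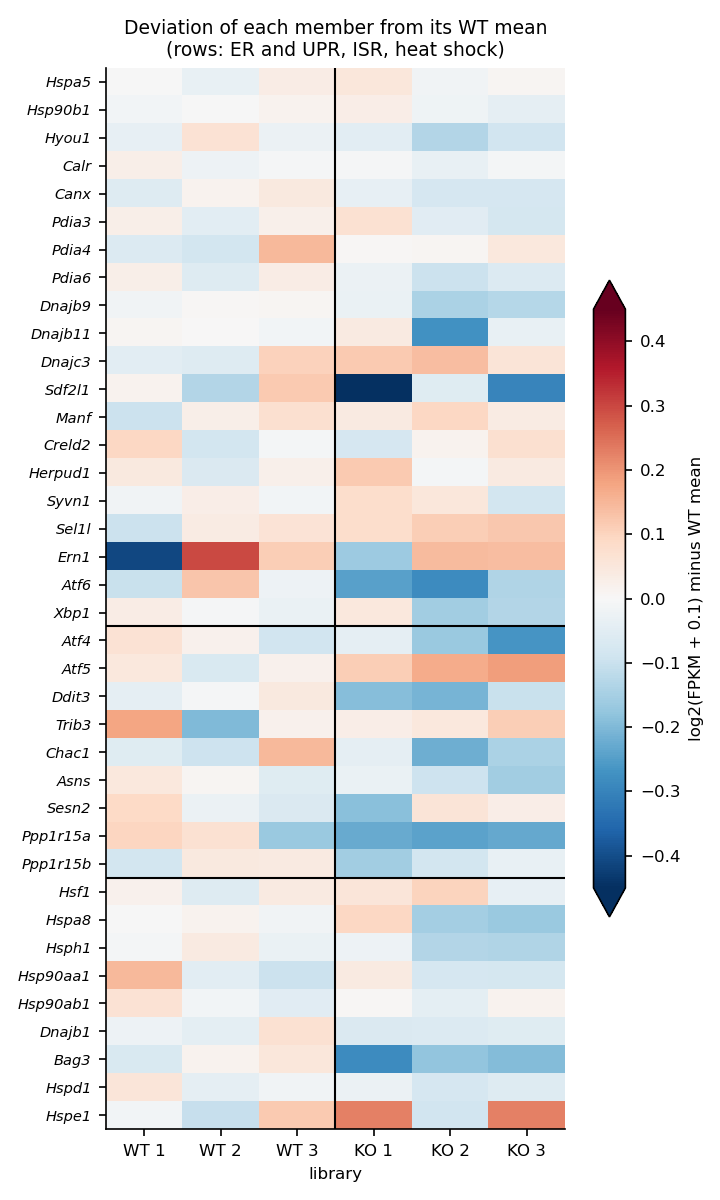
Deviation of each of the 38 tested members from its WT mean, on log2(FPKM + 0.1), in each library, with rows by group and the genotypes parted by a vertical line. The first library labelled KO (median -0.01) is more mixed in sign than the others (-0.07 and -0.06).

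Other genes of the same pathways were read from the same fit. Of 120 further genes, 40 for each pathway, 119 were found by symbol and 115 were tested, with 0 at an adjusted p below 0.05. At an unadjusted p below 0.05, 14 were lower (12.2%, background 7.77%) and 2 were higher (1.74%, background 6.99%). Libraries of the genotypes did not overlap for 26 that were lower (22.6%, background 10.3%) and 3 that were higher (2.61%, background 10.8%). Of the 26, 12 were in the ER list, 6 in the ISR list and 8 in the heat shock list. The median log2 difference was -0.05 in the ER list, -0.01 in the ISR list and 0.00 in the heat shock list, against 0.00 over all loci. By smallest p, the ER list was led by Selenos, Edem2 and Sil1. Selenos, a selenoprotein of the ER degradation machinery, had 25.2, 22.8 and 24.0 FPKM in WT and 20.5, 19.2 and 17.5 FPKM in the libraries labelled KO, with no overlap (log2 difference -0.33, adjusted p = 0.0925). Edem2, which trims glycans of misfolded proteins, and Sil1, a nucleotide exchange factor of BiP, both differed by -0.26, with adjusted p-values of 0.201 and 0.226.

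In the ISR list, Psph, the last enzyme of serine synthesis, differed by -0.24 (adjusted p = 0.130) and the threonyl-tRNA synthetase Tars by -0.15 (adjusted p = 0.225), both with no overlap. The cystine transporter Slc7a11 differed by 0.27 with overlapping libraries (adjusted p = 0.298). In the heat shock list, Hspa2, an HSP70 relative known from testis and brain, had 31.8, 32.1 and 32.8 FPKM in WT and 25.9, 24.4 and 27.1 FPKM in the libraries labelled KO. The groups lay well apart, with a log2 difference of -0.32 (SE 0.05, interval -0.44 to -0.20, adjusted p = 0.0630). With an FPKM minimum of 5, which leaves fewer loci to adjust over, its adjusted p was 0.0439. Dnajc6 (auxilin), which uncoats clathrin vesicles with HSP70 in neurons, differed by 0.16, and the HSP70 co-chaperone Bag5 by -0.18, with adjusted p-values of 0.212 and 0.223.

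**Figure D5:**
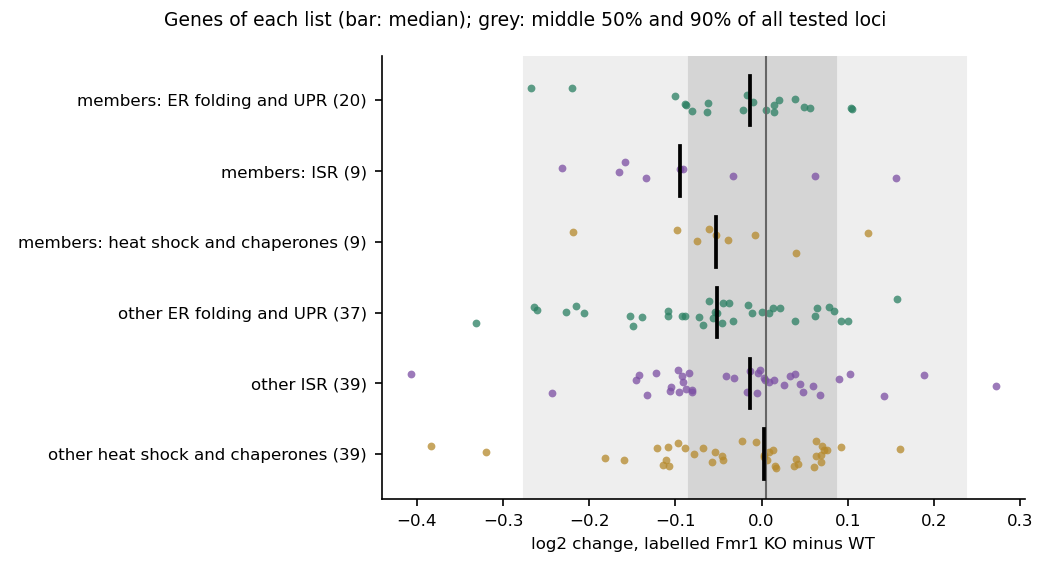
Log2 difference (labelled KO minus WT) of each tested gene in the member groups (20, 9 and 9 genes) and in the other genes of each pathway (37, 39 and 39 genes), with a bar at each median. Grey bands hold the middle 50% and 90% of all 13195 tested loci, and the median of the ISR members, -0.09, is the lowest of the 6.

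Markers of other cells moved with genotype in part. The summed level of 8 microglia markers was 4.45 to 6.47 FPKM in WT and 1.01 to 2.502 FPKM in the libraries labelled KO. Aif1 and Tmem119 were listed at 0 in all libraries, but Aif1 is listed at 4 loci. As for Hspa1a, the listed 0 of Aif1 is no measure of absence. Only C1qa, C1qb and C1qc were tested, and they reached the 1 FPKM minimum through WT alone. A lower level in the libraries labelled KO was thus favoured by the minimum, and their p-values are not read. Their group means were 1.43, 1.05 and 1.30 FPKM in WT and 0.40, 0.16 and 0.36 FPKM in the libraries labelled KO. Of the untested markers, Csf1r and Trem2 overlapped between genotypes and Cx3cr1 was lower without overlap. The sum of 8 fibroblast and mural markers was 47.7 to 52.3 FPKM in WT and 39.1 to 47.1 FPKM in the libraries labelled KO. Most of it was Dcn, with 38.96 to 43.8 and 30.1 to 38.96 FPKM, and the other 7 summed to 8.41 to 8.76 FPKM in WT and 8.14 to 9.0 FPKM in the libraries labelled KO, which overlap. The sum of 8 endothelial markers was 10.99 to 12.6 and 8.73 to 10.6 FPKM, and was mostly Egfl7. Without Egfl7 it was 2.98 to 3.39 FPKM in WT and 2.17 to 2.72 FPKM in the libraries labelled KO. Cldn5 was listed at 0. It has 2 loci, as has Map2, which had a mean of 302.0 FPKM in WT. Whether the 0 of Cldn5 reflects absence was not tested. Oligodendrocyte lineage markers summed to 345.9 to 402.4 FPKM in WT and to 395.7 to 438.8 FPKM in the libraries labelled KO. Without Olig1, the highest of them, the sums were 187.5 to 213.0 and 212.4 to 236.6 FPKM, which overlap narrowly. Pdgfra and Olig2 were higher in the libraries labelled KO without overlap, and the other listed markers overlapped. Of the 7 tested, log2 differences were above 0 for 5 and below 0 for 2. Immediate early genes, which follow neuronal activity, summed to 78.6 to 85.5 FPKM in WT and 77.7 to 81.0 FPKM in the libraries labelled KO. Most of this was Jun, and without it the sums were 33.6 to 36.3 and 32.1 to 35.2 FPKM, which overlap. Arc was lower in the libraries labelled KO without overlap (log2 difference -0.28), and the other listed genes overlapped. Of the 7 tested, log2 differences were below 0 for 5 and above 0 for 2. The part of these markers in the members' differences was not tested.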

How the data were processed

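Total RNA from primary hippocampal cultures was sequenced, with 3 WT libraries and 3 labelled *Fmr1* KO. Per the paper's methods, the authors trimmed the reads, ran TopHat2 against GRCm38, assembled genes by Cufflinks and compared genotypes by Cuffdiff. Their versions and strandedness were not found in the sources. The authors deposited FPKM for each library, beside group FPKM, fold changes, p-values and q-values of their own comparison, which were not used. Depth is unknown, so precision rests on 3 libraries per genotype, and no counting interval is given.

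The 40 members were matched by symbol, and the locus with the highest mean FPKM was kept for the 2 symbols with several loci. limma 3.58.1 in R 4.3.3 was fitted to log2(FPKM + 0.1) over all loci with a mean of at least 1 FPKM in either genotype, with a mean-variance trend, genotype as the only term and two-sided Benjamini-Hochberg adjustment. The fit was run on simulated data with added changes of known size. Whether it finds changes as small as those of the members is not reported here. Intervals are 95% intervals of this fit. Tables were made with Python 3.11.15. Motifs were searched in RefSeq promoter windows, and exon overlap and 50-base windows were taken from GENCODE transcripts of GRCm38. An exact permutation test of the summed Hspa1a and Hspa1b FPKM had been planned, and all values were 0. Protein sequences were not analysed here. The members and gene lists were chosen with earlier results of these data known. Values per library are given for members at an unadjusted p below 0.05, members whose libraries do not overlap, and the anchors Hspa5, Xbp1, Dnajb9, Atf4, Ddit3, Hsf1, Hspa1a and Hspa1b. Of each further list, genes past the adjusted threshold and the 3 with the smallest p are named.
The alternatives tried were other pseudocounts (0.01 and 1), other FPKM minimums (none and 5), centred libraries, no trend, a replicate block, each library left out, and motif windows of 250 bases.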

Additional observations from a re-analysis of the deposited data

How the results depend on the processing

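Among the members, 0 passed an adjusted p below 0.05 in any of the 13 alternative fits, and the lowest adjusted p was 0.113 (Atf4, replicate block). The 7 fits with all libraries reversed the direction of 0 members. Leaving out 1 library reversed 12 members, over these log2 ranges: Hspa5 -0.0031 to 0.032, Hsp90b1 -0.030 to 0.0053, Pdia3 -0.066 to 0.0079, Pdia4 -0.021 to 0.093, Dnajb11 -0.15 to 0.0043, Creld2 -0.036 to 0.051, Syvn1 -0.016 to 0.064, Ern1 -0.17 to 0.19, Sesn2 -0.079 to 0.044, Trib3 -0.037 to 0.15, Hsp90aa1 -0.087 to 0.034 and Hsp90ab1 -0.033 to 0.025. Members lower at an unadjusted p below 0.05 ranged from 2 to 7 and members higher from 1 to 2 with 1 library left out, and the higher loci among all tested from 607 to 1014. The loci past the adjusted threshold, 35, became 15 with no FPKM minimum, 54 with a minimum of 5, 21 without the trend, 65 with the replicate block and 14 to 20 with 1 library left out. Further pathway genes past it, 0, became 1 with an FPKM minimum of 5 (Hspa2) and 2 with the replicate block (Cryab and Hspa2, adjusted p = 0.0496 each). Same-numbered libraries of the genotypes had deviations that correlated at 0.24, 0.06 and 0.08. The other pairs with a replicate 1 library correlated at -0.12 to -0.15. Replicates 1 and 3 correlated best with their own number, and replicate 2 did not. The labels do not say whether same-numbered libraries were prepared together, so the block rests on a shared number. A pairing was not tested. With the block, 6 members were lower and 1 higher at an unadjusted p below 0.05, with Asns among them in place of Sdf2l1. With motif windows of 250 bases, the heat shock element was in 2 windows and the ATF4 element in 3. The sites of Hsph1 and Trib3 lie after the start. The cause of the other shifts was not tested. Depth is unknown, and 3 libraries per genotype set the precision.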

Other observations

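In the list of further ER genes, the libraries labelled *Fmr1* KO were lower for 6 genes and higher for 0 genes at an unadjusted p under 0.05 (backgrounds 7.77% and 6.99% of all loci). Beside Selenos, Edem2 and Sil1, they were Ssr2, Spcs1 and Spcs2, which were chosen for mention after their values were seen. Ssr2 encodes a subunit of the translocon-associated complex, and Spcs1 and Spcs2 encode subunits of the signal peptidase. Ssr2 had 62.1, 58.3 and 59.9 FPKM in WT and 56.8, 53.2 and 52.6 FPKM in the libraries labelled KO. Spcs1 had 56.0, 45.6 and 49.2 FPKM in WT and 45.3, 42.0 and 42.1 FPKM in the libraries labelled KO, and Spcs2 had 51.4, 46.6 and 48.7 FPKM and 45.8, 42.8 and 43.3 FPKM. The genotypes did not overlap for any of these 3 genes, and the limma adjusted p-values were 0.235 to 0.251. The other listed subunits of the same complexes overlapped between genotypes, with log2 differences of -0.09 for Ssr1, 0.00 for Ssr3 and -0.11 for Spcs3.

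The small heat shock protein gene Cryab, also chosen after its values were seen, had 13.5, 10.5 and 14.2 FPKM in WT and 10.3, 8.33 and 10.4 FPKM in the libraries labelled KO. The groups did not overlap, the second WT library lying just above the highest library labelled KO, and the log2 difference was -0.38 with a 95% interval of -0.67 to -0.10 (limma adjusted p = 0.225). Cryab is expressed in glia. The summed astrocyte markers were at 1721 to 2028 FPKM in WT and 1783 to 1981 FPKM in the libraries labelled KO, and their part in the level of Cryab was not tested.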
